A study of Microtus ochrogaster with 40 samples.

Results

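Parvalbumin interneurons are inhibitory neurons of the nucleus accumbens, a region of the ventral striatum involved in reward and social attachment. They release GABA, the main inhibitory transmitter, and many fire very rapid trains of action potentials, which rely on fast potassium and sodium channels and on a quick release machinery at the axon terminal. Parvalbumin, the product of Pvalb, is a calcium-binding protein. Much of the striatum's other tissue is made of spiny projection neurons, which carry the dopamine receptor Drd1a or Drd2, and a separate class of interneurons carries somatostatin (Sst), often with neuropeptide Y and nitric oxide synthase.

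The nuclei came from 40 prairie voles (Microtus ochrogaster), a rodent that forms lasting pair bonds. For 16 days each animal was housed with either a mate, of the other sex, or a peer, of its own sex. Its frozen nucleus accumbens was dissected and run as 1 droplet library of nuclear RNA. The groups were 11 females with a mate, 8 females with a peer, 11 males with a mate and 10 males with a peer. Ages and the identity of each partner were not used here.

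A nucleus was counted as a parvalbumin nucleus when it had at least 2 Pvalb UMIs (unique molecular identifiers, 1 per captured RNA molecule) and 0 UMIs of each of Sst, Drd1a (DRD1A in the files), Drd2 and Slc17a7, the vesicular glutamate transporter of cortical-type excitatory neurons. Of 185995 nuclei that had at least 500 UMIs and at most 5% mitochondrial UMIs, 330 met this rule (0.177%), and they came from 39 of the 40 animals. Exactly 2 Pvalb UMIs were found in 180 of them, 3 in 76, 4 in 30 and 5 or more in 44, with a highest value of 25. Their median depth was 2744 UMIs (507 to 15026), against 1555 for all nuclei. These Pvalb and exclusion counts chose the nuclei and are given as a description only.

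The 40 libraries held 1793 to 8204 kept nuclei each (median 4727.5), with a median of 662 to 2201 UMIs per nucleus. The library of male mate 2 stood apart, with the lowest median depth and all 6375 barcodes under 500 UMIs, and it gave 1 parvalbumin nucleus. Male peer 1 gave 0 of 1793 nuclei, where a limit of 3 counts of the total allows a share of up to 0.167%. A glutamate set, with at least 2 Slc17a7 UMIs and 0 of Pvalb, Sst, Drd1a and Drd2, held 22617 nuclei. It made up from 0.378% of the kept nuclei in male peer 5 to 20.4% in male peer 9. Whether the dissections held tissue from outside the nucleus accumbens was not tested. Cell barcodes recurred between libraries: 21.8% of the parvalbumin nuclei and 22.3% of all nuclei carried a barcode sequence also kept in another library, and 1 barcode was a parvalbumin nucleus in more than 1 library.

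The selected nuclei had the transcripts of GABA neurons. A UMI of Gad1 or Gad2, the enzymes that make GABA, was present in 302 of 330 (91.5%), against 51.5% of all nuclei, and Slc32a1, which loads GABA into vesicles, was present in 77.3%. Kcnc1, a fast potassium channel, was present in 80.9%, Erbb4, the neuregulin receptor, in 64.5%, and Lhx6, a transcription factor of interneurons from the medial ganglionic eminence, in 29.7%. The 28 nuclei without Gad1 and Gad2 had a lower median depth, of 1369.5 UMIs against 2781.5. A cluster of 25 nuclei described below, with a median depth of 4981 UMIs, had Gad1 or Gad2 in 13. Of 15 listed parvalbumin markers, all 15 were detected in the parvalbumin nuclei. Among the parvalbumin, Sst, Drd1a, Drd2 and glutamate sets, 13 were at their highest in the parvalbumin nuclei. Pvalb is among the 15, and the rule itself fixed its detection and its rank. Of the 3 cholinergic markers found, Chat, the enzyme of cholinergic interneurons, and Slc5a7 were at 0 UMIs, while Ecel1 was detected.

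Markers of other cell types were present as well. The summed spiny neuron markers reached 538 CPM (counts per 1000000 UMIs), against 8126 in the Drd1a set and 15372 in the Drd2 set. The 4 oligodendrocyte markers found, among them Mog, Mag and Mbp, summed to 654 CPM, against 750 in the Sst set, 230 in the Drd1a set and 260 in the Drd2 set, and over the 12 animals with at least 10 parvalbumin nuclei they ranged from 22.7 to 2519 CPM. The glutamate neuron markers summed to 98.2 CPM, against 104 in the Sst set, 6.4 in the Drd1a set, 5.96 in the Drd2 set and 2721 in the glutamate set. Slc17a7 is among these markers, and selection fixed it at 0 outside the glutamate set and above 0 within it. Slc17a6 gave 56.0 of the 98.2 CPM. Ecel1 put the cholinergic markers at 43.1 CPM, against 79.1 in the Sst set, 36.5 in the Drd1a set, 107 in the Drd2 set and 18.4 in the glutamate set. Of the 330 nuclei, 8 also met a rule for oligodendrocytes and 5 one for astrocytes, while 0 met one for microglia. Doublets (droplets with the RNA of more than 1 nucleus) were called in 4.55% of the parvalbumin nuclei, against 4.09% of all nuclei.

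Free RNA in the droplets can give a nucleus UMIs of a gene that it does not express. In the oligodendrocyte set, which should lack Pvalb, 20 of 10433 nuclei (0.192%) had at least 2 Pvalb UMIs, at a median depth of 737 UMIs. The corresponding shares were 0.154% in the astrocyte set and 3.88% in nuclei with at least 3 Gad1 UMIs, whose median depth was 2796. Thinning to 1000 UMIs left out shallower nuclei and kept 2861 of 10433 in the oligodendrocyte set, 4923 of 16854 in the astrocyte set and 11890 of 12750 of those rich in Gad1, and the shares were then 0.035%, 0.0406% and 1.06%. At equal depth the exact 95% intervals did not overlap, at 0.883 to 1.26% in nuclei rich in Gad1 and 0.0009 to 0.195% in the oligodendrocyte set. The parvalbumin nuclei held 26.4% of the 4017 Pvalb UMIs in all nuclei.

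The nuclei just outside the rule differed by the gene that left them out. Another 311 nuclei had at least 2 Pvalb UMIs but also a UMI of an excluded gene, and 113 of these were left out by a single UMI. The 66 left out by Drd1a alone all had Gad1, and 93.9% had Kcnc1, 95.5% Erbb4 and 54.5% Lhx6, with Tbr1, a cortical excitatory factor, in 0. At 1000 UMIs, Drd1a was present in 5.21% of the nuclei with at least 2 Pvalb UMIs (95% interval 3.54 to 7.35%). It was present in 5.00% of the oligodendrocyte set (4.23 to 5.86%), 6.72% of the astrocyte set (6.04 to 7.46%) and 12.8% of the microglia set (10.5 to 15.5%). The oligodendrocyte and astrocyte intervals overlapped that of the Pvalb nuclei, and the microglia interval lay above it. Of the 80 nuclei left out by Slc17a7 alone, 65.0% had Gad1 and 27.5% had Tbr1. Slc17a7 at 1000 UMIs was present in 12.7% of the nuclei with at least 2 Pvalb UMIs (10.1 to 15.7%), in 11.4% of the oligodendrocyte set (10.3 to 12.6%), in 11.1% of the astrocyte set (10.2 to 12.0%) and in 17.3% of the microglia set (14.6 to 20.3%), and each glial interval overlapped that of the Pvalb nuclei. Before thinning, 105 of the 141 such nuclei with a Slc17a7 UMI had at least 2, against 306 of 839 in the oligodendrocyte set, at median depths of 3679 and 737 UMIs. Of the 67 left out by Sst alone, 98.5% had Gad1 and 46.3% had Npy, against 5.76% of the parvalbumin nuclei. Sst at 1000 UMIs was present in 11.6% of the nuclei with at least 2 Pvalb UMIs and in 4.40% of the oligodendrocyte set. Doublets were called in 13.2% of the 311 nuclei. The nuclei left out by Drd1a, Sst and Slc17a7 alone had median depths of 4205, 3691 and 5204.5 UMIs, so their percentages and those of the parvalbumin nuclei are not at equal depth.

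On the other side of the Pvalb threshold, 704 nuclei had exactly 1 Pvalb UMI and none of the excluded genes. Gad1 was present in 67.9% of these, against 85.6% of the nuclei with 2 and 95.3% of those with 3 or more. Kcnc1 followed the same order, at 49.6%, 76.1% and 86.7%. The median depths were 1571, 2396 and 2976 UMIs, so these shares are not at equal depth.

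**Figure D1:**
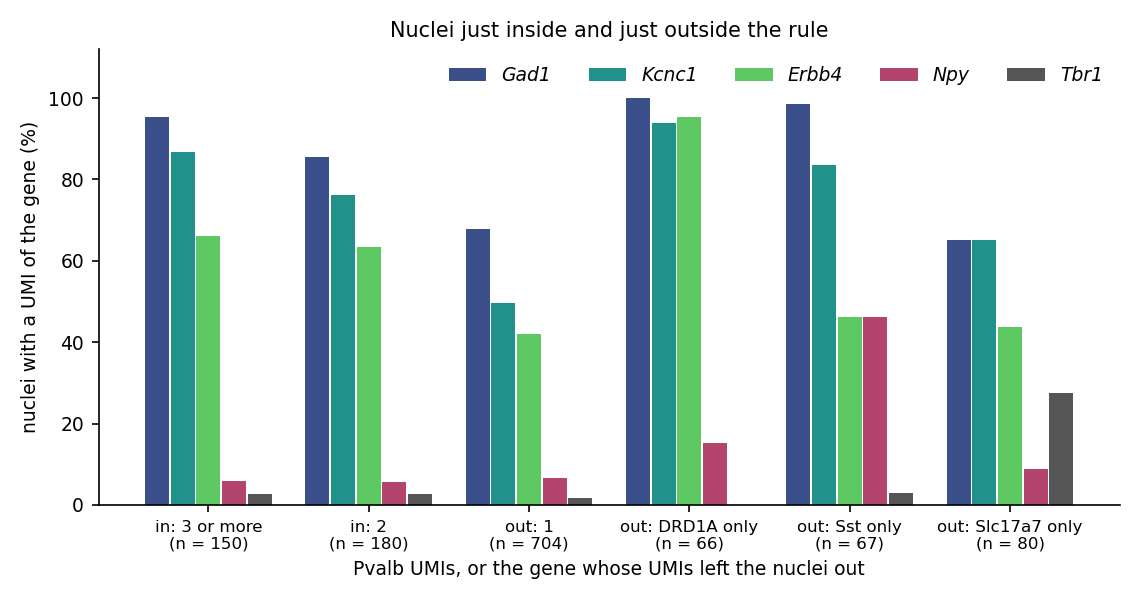
Bars give the percentage of nuclei with at least 1 UMI of Gad1, Kcnc1, Erbb4, Npy or Tbr1 in parvalbumin nuclei with 3 or more or with 2 Pvalb UMIs, in nuclei with 1, and in nuclei with at least 2 that were left out by DRD1A, Sst or Slc17a7 alone. Npy stands out in the nuclei left out by Sst (46.3%) and Tbr1 in those left out by Slc17a7 (27.5%). Depth differs between the sets of nuclei, with medians of 1571 to 5204.5 UMIs.

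Parvalbumin nuclei were then compared with the Sst set (3287 nuclei with at least 2 Sst UMIs and 0 of Pvalb, Drd1a, Drd2 and Slc17a7), the Drd1a set (23358) and the Drd2 set (5314) in the 12 animals that had at least 10 nuclei in each. UMIs were summed per animal and set and tested with edgeR's quasi-likelihood test with the animal as a block. A gene was called at a Benjamini-Hochberg adjusted p under 0.05 and an absolute log2 fold change of at least 1. Of 7392 genes, 218 were higher (2.95%) and 543 lower (7.35%) in parvalbumin nuclei than in the Sst set, or 10.3% in all. Against the Drd1a set 749 were higher and 1156 lower (25.8% in all), and against the Drd2 set 714 and 1129 (24.9%). Median log2 fold changes over all genes were -0.13, -0.13 and -0.12. The 3 comparisons share the parvalbumin nuclei. Over the 12 animals these nuclei held 545576 UMIs, against 2451494 in the Sst set. The filter on low counts that chose the 7392 genes kept Chodl, with 0 against 448 UMIs. It dropped Acan and Pthlh, which were higher in the pooled parvalbumin nuclei. With no filter, 261 of 16380 genes were called higher and 1002 lower than in the Sst set. The part of the filter and of these unequal sums in the shares called, here and beside the lists below, was not tested. The 5 genes of the rule were not tested, and the 3 other sets were chosen by their own marker, so genes that follow those markers are higher there by choice. The parvalbumin nuclei were likewise chosen by Pvalb, which was at 0 in the other sets. Genes that follow Pvalb, in the lists below as well, are higher in the parvalbumin nuclei by choice.

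Ion channels of fast spiking had higher levels in the parvalbumin nuclei. All 12 listed genes had a higher level in parvalbumin nuclei than in the Sst set at an adjusted p under 0.05, where 9.79% of all genes did, and 11 of the 12 were called, with a median log2 fold change of 1.28. Kcnc1 averaged 1100 ± 233 CPM (SD, n = 12 animals; lowest 777, median 1013, highest 1554) in parvalbumin nuclei and 188 ± 46.9 CPM (113, 182, 274) in the Sst set. Every animal's parvalbumin value lay above every Sst value, and the log2 fold change was 2.47 (SE 0.10, edgeR adjusted p = 1.74e-33). Such full separation was seen for 0.568% of all genes and for 6 of these 12, among them also Kcna1, Scn1a, Kcna2 and Scn8a.

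Kcnab3, a potassium channel beta subunit, averaged 209 ± 76.9 against 68.4 ± 36.5 CPM (log2 fold change 1.56, SE 0.21). Hcn2, a cation channel opened by hyperpolarization, passed the p threshold with a smaller change (0.88, SE 0.22, edgeR adjusted p = 0.00165). Against the Drd1a and Drd2 sets, 10 of the 12 were called higher in each comparison, where 10.1% and 9.66% of all genes were, while Kcna1, at 982 CPM against 793 and 799 CPM, did not pass in either. With animals of at least 5 parvalbumin nuclei (32 animals), 7 of the 11 list genes tested were called higher than in the Sst set. Of all genes in that fit, 136 of 6979 were. With counts thinned to 1000 UMIs 5 of 10 were, against 119 of 3858 of all genes. In the 2 animals left by a minimum of 20 nuclei 6 of the 12 were, against 140 of 8517 of all genes. In the 2 left by a minimum of 3 marker UMIs 5 of the 12 were, against 162 of 6172.

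**Figure D2:**
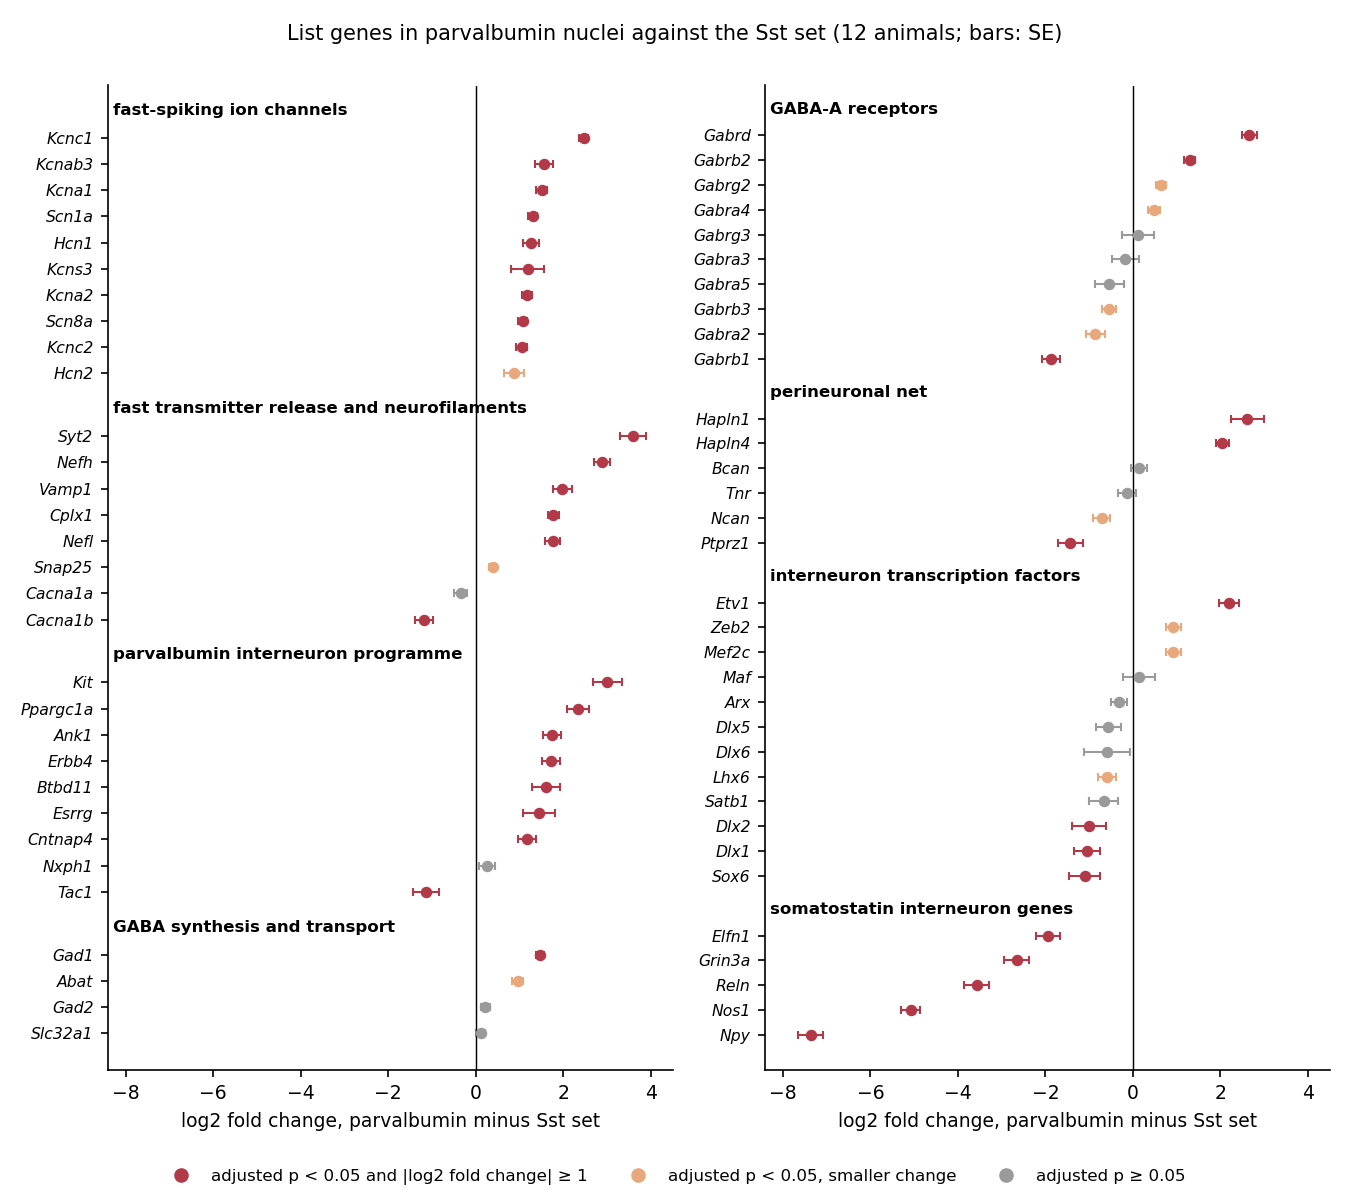
Points are log2 fold changes of list genes between parvalbumin nuclei and the Sst set with their SE (edgeR, 12 animals), coloured by whether they passed both thresholds, only the p threshold or neither. All fast-spiking channel genes drawn, 10 of the 12, lie to the right of 0, and the somatostatin interneuron genes shown lie to the left, while Chodl, with 0 UMIs in the parvalbumin nuclei, is not drawn.

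Genes of fast transmitter release and the axonal cytoskeleton were mostly higher. Of 8 tested, 5 were called higher, 1 was called lower, Snap25 was higher under the fold limit and Cacna1a did not pass (list median 1.77, against -0.13 over all genes). Of all genes tested, 2.95% were called higher and 7.35% lower. With counts thinned to 1000 UMIs, 3 of 6 were called higher and 1 lower, where 119 of 3858 genes were higher and 393 lower. The list median was then 0.87, against -0.35 over all genes. Syt2, the fast calcium sensor of release, averaged 227 ± 115 CPM (lowest 92.3, median 188, highest 476) against 20.6 ± 24.9 CPM (0, 11.4, 92.1). The ranges did not overlap, and the log2 fold change was 3.59 (SE 0.30, edgeR adjusted p = 1.02e-16). Nefh, the heavy neurofilament, averaged 812 ± 656 against 109 ± 51.9 CPM (2.89, SE 0.19), with a wide spread between animals (205 to 2584 CPM). In 25 of the 330 nuclei, a cluster led by Slc17a6 and Mdga1, Nefh was at 3136 CPM, against 559 CPM in the other parvalbumin nuclei. In the same 25, Syt2 was at 406 CPM and Cplx1 at 1362 CPM, against 186 and 1105 CPM in the others. What part those 25 have in these differences was not tested. Vamp1, a vesicle SNARE, had a log2 fold change of 1.98 (SE 0.22). Cplx1, a complexin, averaged 1157 ± 290 against 344 ± 136 CPM (1.78, SE 0.12). Cacna1b, the N-type calcium channel subunit, was the member called lower (-1.18, SE 0.21).

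GABA synthesis differed mainly in 1 enzyme. Gad1 averaged 3316 ± 741 CPM (lowest 2320, median 3259, highest 4837) in parvalbumin nuclei and 1168 ± 311 CPM (587, 1187, 1712) in the Sst set. The ranges did not overlap, and the log2 fold change was 1.46 (SE 0.09, edgeR adjusted p = 7.87e-23). It was 2.84 (SE 0.09) against the Drd1a set and 3.07 against the Drd2 set. Abat, which degrades GABA, was higher than in the Sst set by 0.96 (SE 0.12), under the fold limit. Gad2 (0.21, SE 0.10, edgeR adjusted p = 0.121) and Slc32a1 (0.11, SE 0.10, edgeR adjusted p = 0.428) did not pass. A Gad1 UMI was present in 68.2% of Sst-set nuclei against 90.0% of parvalbumin nuclei, and in the oligodendrocyte set 114 of 10433 nuclei had at least 2 Sst UMIs. What part such nuclei have in these differences was not tested.

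Of 9 tested genes listed for the parvalbumin programme, 7 were called higher than in the Sst set, 1 was called lower and Nxph1 did not pass (list median 1.61), where 2.95% of all genes were higher and 7.35% lower. The parvalbumin nuclei were chosen by Pvalb itself. Kit, a receptor tyrosine kinase, averaged 289 ± 186 CPM in parvalbumin nuclei (0, 225, 624) and 35.4 ± 27.0 CPM (8.57, 32.3, 97.2) in the Sst set, with overlapping ranges because female mate 6 had 0 in its parvalbumin nuclei. The log2 fold change was 3.01 (SE 0.34, edgeR adjusted p = 2e-11). Ppargc1a, a coactivator of mitochondrial genes, averaged 143 ± 54.3 against 26.5 ± 13.6 CPM (2.34, SE 0.26). Ank1, an ankyrin, averaged 245 ± 97.1 against 66.8 ± 14.6 CPM (1.74, SE 0.21). Erbb4 averaged 590 ± 220 against 172 ± 94.0 CPM (1.72, SE 0.20), and its difference was larger against the Drd2 set (6.29) than against the Drd1a set (1.61).

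Tac1, which encodes substance P, was lower than in the Sst set, at 166 ± 118 against 327 ± 93.1 CPM (-1.14, SE 0.30). Pthlh, a peptide hormone, and Cox6a2, a mitochondrial subunit, fell under the filter on low counts. Over all 330 nuclei Pthlh was at 34.9 CPM, against 1.84 in the Sst set. Of 85 nuclei with at least 2 Pthlh UMIs, 84 had Gad1 or Gad2, 14 had any Pvalb and 3 were parvalbumin nuclei, a count made after the values were seen. Among nuclei with at least 3 Gad1 UMIs, 1094 of 12750 (8.58%) had any Pvalb.

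Perineuronal nets are an extracellular matrix that wraps many parvalbumin neurons. Of 6 genes of these nets tested, 2 were called higher than in the Sst set and 1 lower. Of all genes, 2.95% were called higher and 7.35% lower, and the lower side of the list rests on 1 called gene. The link proteins were higher: Hapln1 averaged 118 ± 57.2 against 18.8 ± 12.3 CPM (2.62, SE 0.38), and Hapln4 averaged 538 ± 107 CPM (352, 540, 756) against 124 ± 35.3 CPM (81.4, 116, 185). For Hapln4 the ranges did not overlap, and the log2 fold change was 2.05 (SE 0.15, edgeR adjusted p = 9.99e-19). Ptprz1, a receptor phosphatase, was called lower (-1.43, SE 0.29), and Ncan, the core protein neurocan, was lower under the fold limit (-0.72, SE 0.20). Bcan and Tnr did not pass. With counts thinned to 1000 UMIs, 1 of 5 tested was called higher and 2 lower, where 119 of 3858 genes were higher and 393 lower. Acan, the core protein aggrecan, was too sparse to test, at 41.3 CPM against 3.54 CPM in the pooled sets, and was present in 11.5% of the parvalbumin nuclei.

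**Figure D3:**
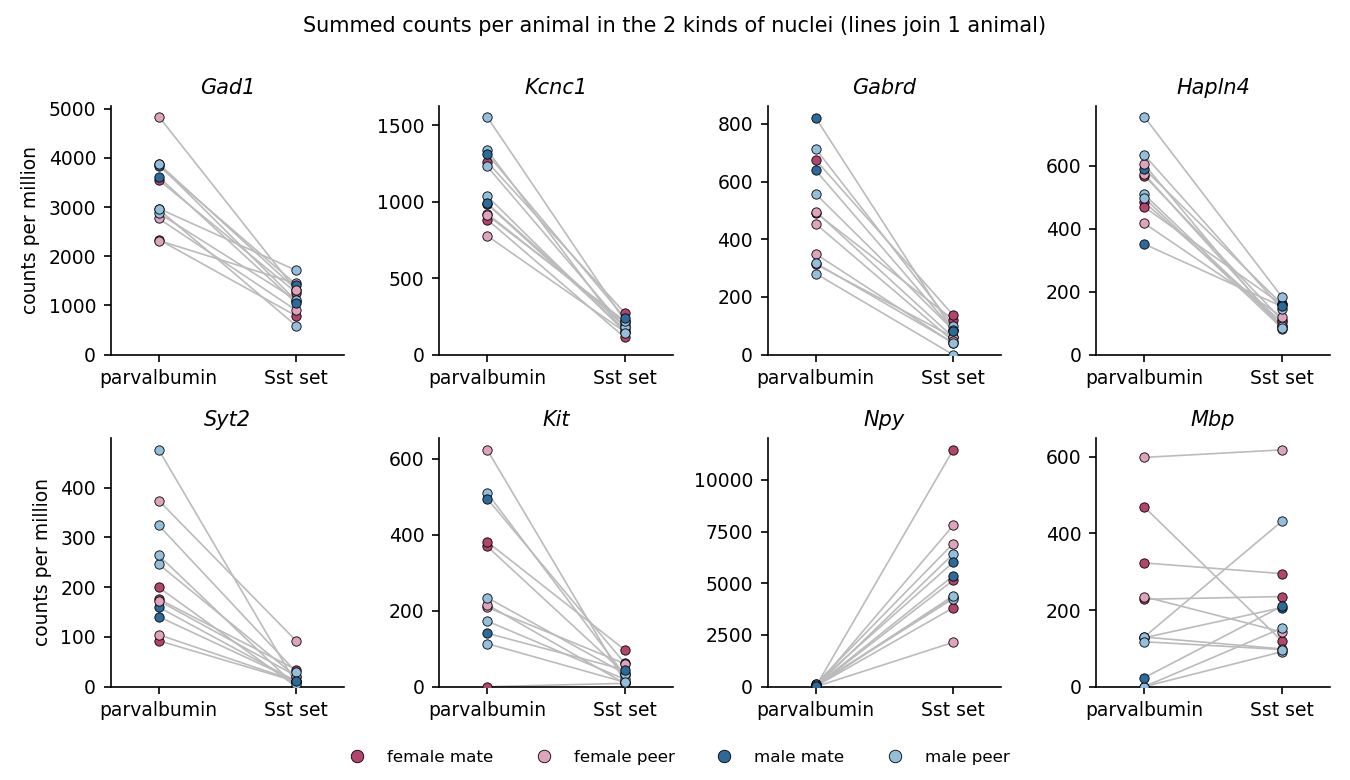
Each point is 1 animal's CPM from summed UMIs in its parvalbumin nuclei (left) or its Sst set (right), lines join the same animal and colours give the group (12 animals). For Gad1, Kcnc1, Gabrd, Hapln4 and Syt2 the parvalbumin values all lie above the Sst values, for Npy all below, and for Kit and Mbp the ranges overlap.

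GABA-A receptors, the channels through which GABA acts quickly, had members on both sides. Of 11 tested subunits, 3 were called higher, Gabrd and Gabrb2 among them, Gabrb1 was called lower, 4 changed under the fold limit and 3 did not pass (list median 0.11). The share called lower, 1 of 11, was near the 7.35% of all genes, while 2.95% of all genes were called higher. In the 2 animals left by a marker minimum of 3 UMIs Gabrb2 lost its call (edgeR adjusted p = 0.289). The delta subunit Gabrd averaged 509 ± 176 CPM (281, 494, 820.5) against 71.9 ± 38.2 CPM (0, 71.8, 137), without overlap (2.66, SE 0.17, edgeR adjusted p = 9.14e-22). The beta2 subunit Gabrb2 averaged 554 ± 167 against 221 ± 34.4 CPM (1.30, SE 0.13). The beta1 subunit Gabrb1 averaged 74.6 ± 43.2 against 263 ± 64.0 CPM (-1.86, SE 0.21).

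Of 12 glutamate receptor genes, 0 were called higher than in the Sst set, where 2.95% of all genes were, so the 0 is near the background. Called lower were 3, where 7.35% of all genes were, among them the kainate receptor subunit Grik1 (-3.12, SE 0.38) and the NMDA receptor subunit Grin3a (-2.65, SE 0.28). The AMPA receptor subunit Gria4 was higher under the fold limit, at 273 ± 90.0 against 142 ± 42.8 CPM (0.90, SE 0.16). Of 19 tested neuromodulator and steroid receptors, 2 were called higher and 6 lower, where 2.95% of all genes were higher and 7.35% lower. Tacr3, a tachykinin receptor, averaged 51.3 ± 41.8 against 6.53 ± 6.75 CPM (2.84, SE 0.55). Its call was lost in the 2 animals left by a marker minimum of 3 UMIs (edgeR adjusted p = 0.0675) and in the 2 left by a minimum of 20 nuclei (edgeR adjusted p = 0.0797). The mu and kappa opioid receptors were lower, Oprm1 at 6.70 ± 12.2 against 46.7 ± 11.6 CPM and Oprk1 at 1.46 ± 5.07 against 24.8 ± 14.2 CPM. In the Drd1a set these averaged 178 and 201 CPM. With counts thinned to 1000 UMIs, which left 8 animals, both calls against the Sst set were lost at log2 fold changes of -2.58 and -4.85 (edgeR adjusted p = 0.0905 and 0.209). They were also lost in the 2 animals left by a marker minimum of 3 UMIs, at -7.58 and -6.19 (edgeR adjusted p = 0.127 and 0.429). Hcrtr2, an orexin receptor, had 0 UMIs in the 12 animals' parvalbumin nuclei and averaged 5.34 ± 4.10 CPM in the Sst set, a difference that did not pass (edgeR adjusted p = 0.0514). The oxytocin receptor Oxtr had 1 UMI in all 330 nuclei and the estrogen receptor Esr1 had 0, and neither was tested.

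Most transcription factors of interneurons were higher than in the spiny neuron sets. Of 12 tested, 10 were called higher than in the Drd1a set and 10 higher than in the Drd2 set, where 10.1% and 9.66% of all genes were, and Dlx6 was called lower than in both (-1.65 and -1.74). Against the Sst set 1 was called higher and 3 lower, where 2.95% of all genes were higher and 7.35% lower, so the share called higher is read as no result. Etv1, an ETS factor, was the one called higher (237 ± 117 against 52.2 ± 29.3 CPM, 2.20, SE 0.24). Sox6 (-1.10, SE 0.35), Dlx1 (-1.05, SE 0.29) and Dlx2 (-1.01, SE 0.39), factors of interneuron development, were called lower, and each was higher than in the Drd1a set, by 5.91, 2.21 and 1.12, although Dlx2 did not pass there by DESeq2 (0.80, adjusted p = 0.0859). The calls against the Sst set were lost for Dlx2 without female peer 1 (edgeR adjusted p = 0.0666), and for Dlx2 and Sox6 with called doublets left out (edgeR adjusted p = 0.0713 and 0.0586). Dlx2 also lost its call with RLE factors (log2 fold change -0.99), with Gad1 or Gad2 required (edgeR adjusted p = 0.209) and with animals of at least 5 parvalbumin nuclei (-0.78). In the 2 animals left by a minimum of 3 marker UMIs, 3 of 9 factors tested were called higher and 0 lower, and in the 2 left by a minimum of 20 nuclei 2 of 14 were higher and 0 lower. Of all genes, 162 of 6172 were higher and 161 lower in the first of these fits. In the second 140 of 8517 were higher and 221 lower, so the 0 called lower is near the background.

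The 6 somatostatin interneuron genes were all called lower in parvalbumin nuclei, where 7.35% of all genes were, and the Sst set was chosen by Sst itself. Npy, neuropeptide Y, averaged 33.2 ± 48.8 CPM (0, 7.69, 130.5) against 5674 ± 2370 CPM (2144, 5255, 11455), with no overlap (-7.37, SE 0.28). Nos1, nitric oxide synthase, averaged 26.6 ± 23.9 against 850 ± 401 CPM (-5.07, SE 0.22), and Reln, the secreted protein reelin, 46.5 ± 62.0 against 569 ± 210 CPM (-3.57, SE 0.28). Chodl, a marker of the Nos1-expressing type, had 0 UMIs in the parvalbumin nuclei and 448 in the Sst set. Against a floor of 3 UMIs over the 12 animals it was at least 33.2-fold lower.

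All 11 tested spiny neuron genes were called lower than in the Drd1a set and 10 of 11 lower than in the Drd2 set, where 15.6% and 15.3% of all genes were. Penk, enkephalin, averaged 94.6 ± 138 CPM against 6580 CPM in the Drd2 set. Meis2, a homeobox factor, averaged 16.8 ± 21.2 against 644 and 580 CPM. Adora2a, an adenosine receptor, averaged 9.77 ± 33.8 against 901 CPM in the Drd2 set, and all of it came from 1 animal. Its call against the Drd1a set was lost without female peer 1 (-1.67, edgeR adjusted p = 0.0706), with Gad1 or Gad2 required (0.163), after thinning (0.51), with a marker minimum of 3 UMIs (0.154) and with at least 20 nuclei (0.112). Of 5 tested immediate early genes, which follow recent activity, 4 were called lower than in each spiny neuron set and 2 lower than in the Sst set, where 15.6%, 15.3% and 7.35% of all genes were. Against the Sst set 0 of 5 were called with a marker minimum of 3 UMIs and 0 of 6 with at least 20 nuclei per animal (2 animals each). Of all genes, 323 of 6172 and 361 of 8517 were called in these fits, so the 0 is near the background. Arc averaged 17.4 ± 22.4 CPM against 185, 187 and 56.9 CPM in the Drd1a, Drd2 and Sst sets, and its call against the Sst set was lost after thinning (-2.03, edgeR adjusted p = 0.114), with at least 20 nuclei (-1.15, 0.466) and with a marker minimum of 3, where the log2 fold change was -0.30 (0.899). Egr1 averaged 31.0 ± 57.1 CPM against 215, 219.6 and 68.2 CPM, and it lost its call with a marker minimum of 3 (-0.12, edgeR adjusted p = 0.958) and with at least 20 nuclei (-1.36, 0.226). Npas4 and Nr4a1 were called lower than in both spiny neuron sets and did not pass against the Sst set, although Npas4 was called lower by DESeq2 (-1.22, adjusted p = 0.0289) and with called doublets left out (-1.57, edgeR adjusted p = 0.023).

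The 10 largest increases over the Sst set among named genes with at least 50 CPM were Gm19410, Syt2, Fabp3, Kit, Nefh, Tacr3, Col24a1, Gabrd, Adamts15 and Hapln1. Fabp3, a fatty acid binding protein, averaged 120 ± 58.4 CPM against 12.3 ± 8.53 CPM, with no overlap (3.02, SE 0.34). Adamts15, a matrix protease, averaged 132 ± 91.6 against 16.6 ± 14.0 CPM (2.63, SE 0.36). Col24a1, a collagen, averaged 106 ± 144 against 12.6 ± 8.93 CPM, with 528 CPM in 1 animal, and it was lower than in the Drd1a set (216 CPM). Gm19410 averaged 67.7 ± 46.4 against 3.91 ± 5.91 CPM. The 10 largest decreases were Chodl, Npy, Npy2r, Man1a, Nos1, Cpne7, Pdyn, Tac2, Pcdh18 and Ptprt. Of these, Npy2r, a neuropeptide Y receptor, had 1 UMI in the parvalbumin nuclei and 230 in the Sst set, a 51.2-fold ratio per UMI sequenced with a 95% counting interval of 9.10 to 2030. Man1a, a mannosidase, had 3 against 661 UMIs (49.0-fold, 16.7 to 238). Ptprt, a receptor phosphatase, averaged 18.7 ± 21.9 against 294 ± 99.3 CPM without overlap (-4.01, SE 0.33), and Pcdh18, a protocadherin, 11.4 ± 30.7 against 185 ± 101 CPM. In 2-animal fits, calls against the Sst set were also lost for Fabp3 and Tac2 with a marker minimum of 3 UMIs (edgeR adjusted p = 0.0514 and 0.112), for Adamts15 and Cpne7 with at least 20 nuclei (0.421 and 0.101), and for Kcnab3 and Ank1 with either (0.103 to 0.232).

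Clustering divided the 330 nuclei into 3 groups at a resolution of 0.5, described here with no test because the clusters were made from these genes. The largest, of 160 nuclei from 37 animals (median depth 1790.5 UMIs), was led by Slc17a6, Mdga1 and Nefl. It had Nefh at 1418 CPM, Cplx1 at 1596 and Nefl at 1619. What part the 25 nuclei led by Slc17a6 and Mdga1, with Nefh at 3136 CPM, have in these levels was not tested. A group of 103 nuclei from 34 animals (median 2853 UMIs) was led by Myo6, Bud13, P3h2, Chsy3 and Cdh7 and had Mef2c at 1308 CPM and Adra1a at 356. The smallest, of 67 nuclei from 28 animals (median 3237 UMIs), was led by Crabp1 and Cnr1. Cnr1, the cannabinoid receptor CB1, was present in 95.5% of its nuclei (1944 CPM), against 19.4% (151 CPM) and 11.7% (65.3 CPM) in the larger groups.

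This Cnr1 group also differed in genes from several of the lists. Kit stood at 717 CPM there, against 174 and 97.9 CPM, Etv1 at 521 against 151 and 104 CPM, Hapln1 at 370 against 95.4 and 50.4 CPM, and Gabrd at 843 against 309 and 528 CPM. Nkx2-1, a factor of the medial ganglionic eminence, was at 115 CPM against 4.15 and 2.97 CPM, and Pthlh at 99.8 against 18.7 and 5.93 CPM. Syt2 and Tac1 went the other way, at 29.6 and 22.2 CPM, against 292 and 243 CPM in the largest group and 249 and 240 CPM in the next. Mef2c was at 229 CPM, against 978 and 1308 CPM. Erbb4 and Ank1, of the parvalbumin programme list, differed less, at 684 against 502 and 641 CPM and at 181 against 249 and 231 CPM. Pvalb itself was at 695 CPM, against 1269 and 768 CPM. A single animal gave at most 11, 6 and 12 nuclei to the 3 groups. In order of size, the groups held 40, 22 and 29 of the 91 nuclei of females with a mate, 34, 18 and 10 of 62 of females with a peer, 46, 24 and 15 of 85 of males with a mate and 40, 39 and 13 of 92 of males with a peer.

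Within the largest group a few nuclei had genes of excitatory neurons. Slc17a6, a vesicular glutamate transporter that the rule did not exclude, led that group, but only 6.88% of its nuclei had a UMI of it. At a resolution of 1, there were 6 groups, and 1 of them, with 25 nuclei from 12 animals, was led by Mdga1 and Slc17a6 and had Nefh at 3136 CPM. Gad1 or Gad2 was present in 13 of those 25 nuclei (52.0%), and the glutamate neuron markers summed to 464 CPM, against 6.07 to 79.7 CPM in the other 5 groups. Slc17a6 itself gave 420 CPM of that sum. For these 25 nuclei the markers go against the label in part.

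**Figure D4:**
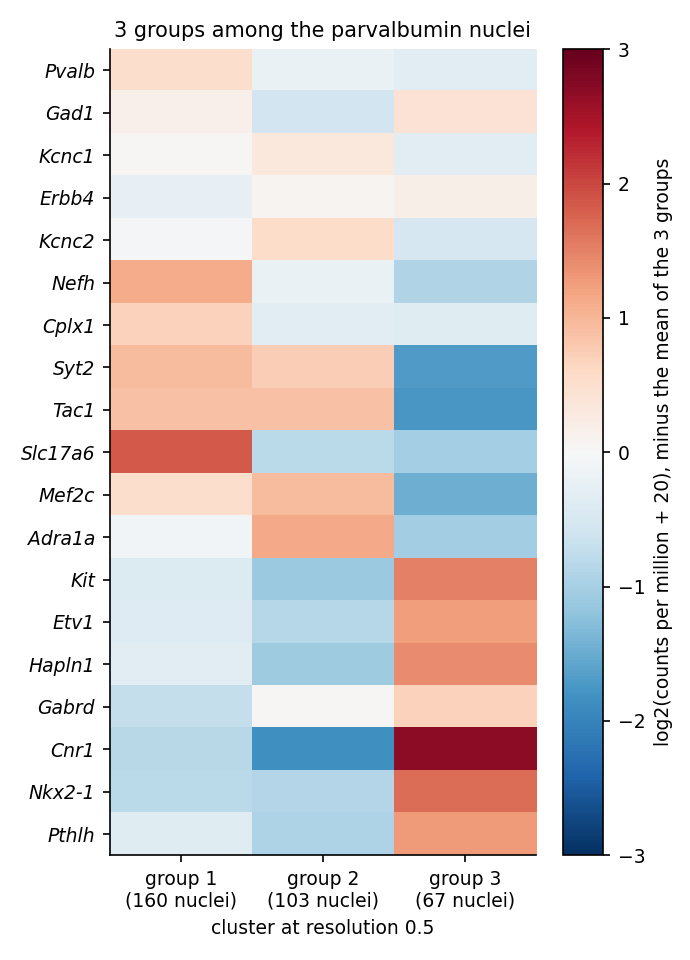
Colour gives the log2 level (CPM plus 20) of each gene in each of the 3 groups of parvalbumin nuclei, minus that gene's mean over the groups, so that values compare along a row only. Cnr1, Kit, Etv1, Hapln1, Nkx2-1 and Pthlh are highest in the group of 67 nuclei, and Syt2, Tac1 and Mef2c are lowest there.

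The share of parvalbumin nuclei was compared between mate and peer animals, which asks whether the kind of partner goes with a difference in these interneurons. The share per animal ran from 0 to 0.368% among animals other than female peer 1, which had 0.486% (10 of 2059 nuclei, exact 95% interval 0.233 to 0.891%). Means were 0.163 ± 0.0905% (SD, n = 11) in females with a mate, 0.210 ± 0.122% (n = 8) in females with a peer, 0.156 ± 0.0823% (n = 11) in males with a mate and 0.196 ± 0.0995% (n = 10) in males with a peer. All 4 groups overlapped. With the sexes weighted equally, mate animals were lower by 0.0436 percentage points (two-sided permutation p = 0.170, Benjamini-Hochberg adjusted over 5 tests p = 0.613). The difference was -0.0469 within females (exact permutation p = 0.368) and -0.0402 within males (exact permutation p = 0.322). Without female peer 1 it was -0.0075 within females (exact permutation p = 0.851) and -0.0239 over both sexes (permutation p = 0.387). Without male mate 2 it was -0.0263 within males (exact permutation p = 0.506) and -0.0366 over both sexes (permutation p = 0.246). Females and males differed by 0.0105 percentage points (permutation p = 0.743), and the pairing difference did not differ detectably between the sexes (-0.0067, permutation p = 0.919). Cage partners may resemble each other, which the tests do not take into account. There were only 2 to 24 parvalbumin nuclei per animal outside the libraries of male mate 2 and male peer 1.

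**Figure D5:**
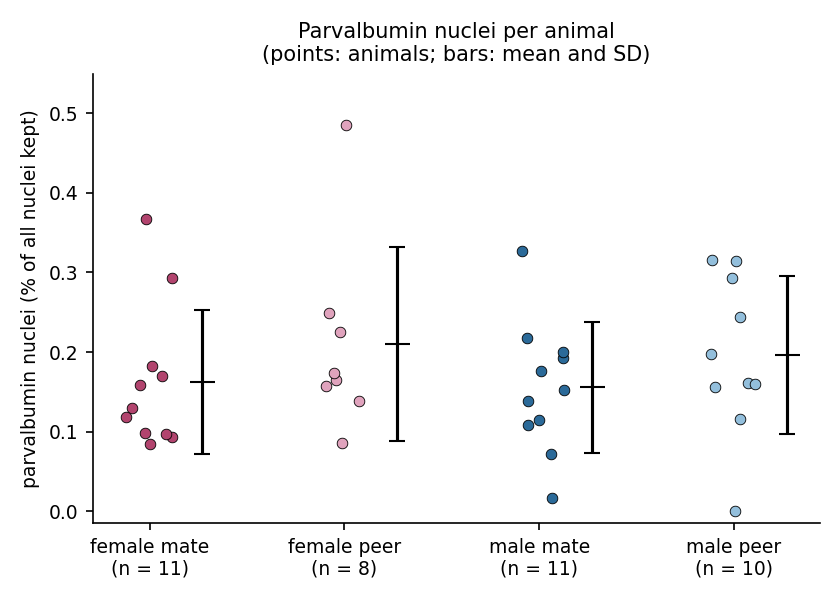
Points give the parvalbumin nuclei of each animal as a percentage of all nuclei kept, and bars the mean and SD of each group. The 4 groups overlap, with female peer 1 highest at 0.486% and male peer 1 at 0.

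Pvalb counted over all nuclei of an animal, before any nucleus was selected, averaged 10.9 ± 5.39 CPM in the 22 mate animals and 12.3 ± 6.76 CPM in the 18 peer animals. The edgeR log2 fold change between them was -0.16 (SE 0.22, adjusted p = 0.855), and it was -0.17 (SE 0.33) within females and -0.15 (SE 0.30) within males. Females and males differed by -0.16 (SE 0.22, edgeR adjusted p = 0.837). Of 13788 genes in these fits, 0% were called by pairing and 0.0218% by sex.

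Across the 40 animals the share of parvalbumin nuclei had no detectable relation to 4 other measures. Pearson's r with the share of the Sst set was 0.221 (permutation p = 0.171, adjusted p = 0.684) and Spearman's rho was 0.257 (permutation p = 0.109), and r fell to 0.125 without the 2 animals farthest from the median. The values for the glutamate set were r = 0.126 (permutation p = 0.436) and rho = 0.228. For the Drd1a and Drd2 sets together they were r = -0.05 (permutation p = 0.758) and rho = -0.115, and for the median UMIs per nucleus r = -0.0795 (permutation p = 0.621) and rho = 0.0521. Without male mate 2, r was 0.315 with the Sst set (permutation p = 0.0501), 0.215 with the glutamate set, -0.196 with the Drd1a and Drd2 sets and -0.303 with the median UMIs (permutation p = 0.061), and the lowest adjusted p was 0.122. Within groups the largest value was r = -0.845 with the median UMIs in the 8 females with a peer, which include female peer 1. With the rule applied to counts thinned to 1000 UMIs, the values of r were 0.348, 0.347, -0.31 and -0.33. The permutation p was 0.028, 0.0302, 0.0516 and 0.0421, and 0.0516 for each when adjusted over the 4 relations. Spearman's rho was 0.333, 0.344, -0.269 and -0.144, with a lowest adjusted permutation p of 0.072. Without the 2 animals farthest from the median of each measure, r was 0.251, 0.371, -0.274 and -0.147.

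Expression within parvalbumin nuclei was compared between groups in the 12 animals with at least 10 of them (166 nuclei): 3 females with a mate, 3 females with a peer, 2 males with a mate and 4 males with a peer. Only 1606 genes passed the filter on low counts. By edgeR's quasi-likelihood test 0 genes (0%) were called between mate and peer, between sexes, for their interaction, or within either sex, and DESeq2 called 0 as well. An unadjusted p under 0.05 was found for 41 genes by pairing (2.55%), 55 by sex (3.42%), 44 for the interaction (2.74%) and 45 within each sex (2.8%). With so few nuclei these fits have low precision, and a gene that did not pass is not shown to be equal. Of the fast-spiking channels, 10 were tested, with a median log2 fold change between mate and peer of 0.02 (-0.02 over all genes). Of 7 tested genes of fast transmitter release and neurofilaments, 3 had an unadjusted edgeR p under 0.05 by pairing, where 2.55% of all genes did. The list median was -0.60, and 0 were called. Within males 3 of the 7 were under 0.05 (median -0.97), and within females 0 were (median -0.22). This list was picked out after the values were seen.

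The lowest p by sex belonged to Mbp, myelin basic protein. Its values were 323, 228 and 469 CPM in the females with a mate, 599, 235 and 130 CPM in the females with a peer, 128 and 23.4 CPM in the males with a mate and 0, 130, 117 and 0 CPM in the males with a peer. All but 1 female value lay above every male value, and the log2 difference was 2.22 (SE 0.50, edgeR adjusted p = 0.155). The 4 oligodendrocyte markers summed to 235 to 2519 CPM in the 6 females and 22.7 to 972 CPM in the 6 males, and Mog and Mag were at 0 in the males with a mate. Krt222, a keratin, was also among the 3 genes with the lowest p (1.11, SE 0.36, edgeR adjusted p = 0.998). Leaving out 1 animal brought 1 gene by sex under an edgeR adjusted p of 0.05 without female peer 7, 1 without female peer 8 (Mbp) and 3 without male peer 8 (Mbp and Ptgds among them). What part RNA of oligodendrocytes has in these values was not tested.

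By pairing, the lowest p belonged to Slc1a3, an astrocyte glutamate transporter (-2.56, SE 0.73, edgeR adjusted p = 0.997), which was at 0 and 16.0 CPM in the males with a mate and 29.3 to 369 CPM in the males with a peer. In females its values overlapped, at 154, 57.0 and 29.3 CPM with a mate and 199.5, 287 and 21.6 CPM with a peer. The 6 astrocyte markers summed to 93.8 and 144 CPM in the males with a mate and 147 to 1037 CPM in the males with a peer, with Aqp4, Gja1, Gfap and Aldh1l1 at 0 in the former. Vsnl1, a neuronal calcium sensor, followed (-0.93, SE 0.30), and within females it had the lowest p: 262, 285 and 147 CPM with a mate against 948, 913 and 540 CPM with a peer. Those 3 against 3 values did not overlap (-1.76, SE 0.42, edgeR adjusted p = 0.308, and 0.0309 without male peer 10), and the males did overlap, at 463 and 375 CPM against 194 to 861 CPM. Slc1a3 and Vsnl1 were picked by their low p. The share of all genes with values as fully separated was not counted, so nothing is read from such separation here. The unnamed gene ENSMOCG00000020752 was next by pairing (-0.83, SE 0.28). Within females Supt5 (1.75, SE 0.59) and Clptm1 (-1.19, SE 0.40) came next, and within males Apoe, an apolipoprotein of astrocytes (-2.67, SE 0.76), and Fxr1 (-1.94, SE 0.65). For the interaction the lowest p belonged to Kcna3 (-2.23, SE 0.71), followed by Apoe (2.92, SE 0.95). For all of the genes in these contrasts given without one, the adjusted p was at least 0.995 by edgeR.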

How the data were processed

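Counts are raw UMI counts per gene and nucleus, deposited by the authors as 1 matrix per animal. They were made with Cell Ranger 3.1.0, per the submitters' processing notes and the file headers, while the genome build, the annotation and the rule that kept barcodes are not given in the sources used here. Nuclei with fewer than 500 UMIs or over 5% mitochondrial UMIs were left out (6375 and 2148 of 194518), which leaves 185995, and 19130 genes were used. Gene names are those of the files, and 3807 genes have none. The members, the 12 gene lists, the markers and the tests were chosen with earlier results of these data known. Of 185 list genes 174 were found, and the others were not used here.

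UMIs were summed per animal and tested with edgeR 4.0.16 (quasi-likelihood, TMM, filterByExpr) in R 4.3.3, with DESeq2 1.42.0 as an alternative. The replicate is the animal. CPM and their SD are from summed UMIs. Shares were compared by permutation (100000 resamples, or exact), two-sided. Intervals are exact binomial, or exact conditional for ratios of counts, at 95%, and cover counting error only. Doublets were scored against simulated doublets in each library with an assumed 0.8% per 1000 nuclei, and none was removed from the main results. Members were clustered with Leiden (leidenalg 0.10.2; 2000 variable genes, 30 components, 15 neighbours). The scripts were tested on simulated data.

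Named genes were the 10 with the largest change in each direction against the Sst set among called genes with at least 50 CPM, up to 4 with the largest change per list, and the 3 with the lowest p for pairing, sex and interaction. Other genes named in the text, the genes shown in the threshold and cluster comparisons, and the sets of nuclei rich in Gad1 were chosen after values were seen. Glial sets had at least 3 UMIs summed over Mag, Mog and Mobp, over Aqp4 and Gja1, or over Csf1r, Cx3cr1 and P2ry12, counting the genes found. Results for a few of the genes that this rule names are not reported here.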

Additional observations from a re-analysis of the deposited data

Results flagged for a closer look

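Among 20 comparisons of an animal with the rest of its group, of which about 1 in 20 would be picked out by chance, 2 values stood far from the others. The share of parvalbumin nuclei in female peer 1 was 0.486%, against 0.249% for the next of the 8 females with a peer. Of its 10 parvalbumin nuclei 7 had Gad1 or Gad2, and 1 met a glial rule. In male peer 8, among the 4 males with a peer that had at least 10 parvalbumin nuclei, Gad1 was at 3867 CPM against 2969 for the next.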

How the results depend on the processing

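Depth and the number of nuclei limit these results: 279 of the 330 parvalbumin nuclei had the 1000 UMIs needed for thinning. With the rule applied anew to the thinned counts of all nuclei of that depth, 121 met it. Not all of these are among the 330, because male peer 1 had 0 before thinning and 1 after. No paired analysis was run because the labels give no replicate numbers within groups and do not say which animals lived together. Their running number goes from 1 to 40. Each odd number and the next even one hold a female and a male with a mate, or peers of the same sex. No label says that such neighbours were partners, and they were not tested as pairs. With blocks of 10 of these numbers as a term, 0 genes were called within parvalbumin nuclei by edgeR in each of the 5 contrasts, with 45 to 76 at an unadjusted p under 0.05. Settings with at least 5 nuclei per animal, without female peer 1, and without each of the 12 animals in the fits within parvalbumin nuclei were chosen after seeing the data. The fits within parvalbumin nuclei with a Pvalb minimum of 3 UMIs or at least 20 nuclei per animal could not be fitted. Where a value below moved, the cause was not tested.

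No difference in the share of parvalbumin nuclei passed its test under any setting run. Without male mate 2 the sex difference was 0.0035 and the interaction -0.0206. The interaction turned positive, in percentage points, with a Pvalb minimum of 3 (0.0056), without exclusions (0.0247), with Gad1 or Gad2 required (0.0184), as a share of parvalbumin and Sst nuclei (2.03) and without female peer 1 (0.0327). The sex difference turned to -0.0032 after thinning and -0.0092 without female peer 1, and the difference within males turned to 0.01 after thinning.

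Genes called against the Sst, Drd1a and Drd2 sets numbered 1173, 3608 and 3159 with DESeq2, 1263, 3338 and 3140 with no filter on low counts, and 323 (162 higher and 161 lower), 1216 and 884 with a marker minimum of 3 UMIs (2 animals). At least 20 nuclei per animal left 361 against the Sst set, and thinning left 1138 and 1105 against the Drd1a and Drd2 sets. Of the 761 genes called against the Sst set, 673 were also called by DESeq2, 282 after thinning, 265 with at least 20 nuclei and 204 with a minimum of 3. For named genes against the Sst set, 573 of 619 values kept their direction and side of the thresholds, 35 fell below them and 6 rose past them. Slc32a1 turned to -0.0362 (DESeq2), -0.0065 (no filter), -0.32 (minimum of 3), -0.0477 (thinned) and -0.14 (at least 20 nuclei). Against the Drd1a and Drd2 sets Pcdh18 turned to -1.11 and -1.77 after thinning, and Grik1 to -0.0158 and -3.74 with a minimum of 3 and to -2.35 and -4.48 with at least 20 nuclei.

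Within parvalbumin nuclei, with no filter on low counts 3 genes were called by sex (Mbp and Cldn11 among them), 1 within females (Sema6d) and 1 within males (Slc1a3). With Gad1 or Gad2 required (8 animals), 1 was called by sex, 3 for the interaction, 1 within females (Cck) and 1 within males (Apoe). That fit held 1 female with a mate and 1 with a peer, so its calls by sex, within females and for the interaction assume that a lone animal varies like the males, and nothing is read from them. Leaving out 1 animal at a time gave 0 to 3 calls by sex and 0 to 1 within females. Clustering gave 6 groups at a resolution of 1.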
